A study of Homo sapiens with 16 samples.

Results

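Prednisolone-treated cells of 2 Nalm6 lines were compared, to ask which RNAs differed between the lines while the drug was present. Nalm6 is an established cell line from a human leukaemia of B-cell precursors, and prednisolone is a synthetic glucocorticoid. The compared arrays were the 4 arrays titled control with prednisolone and the 4 titled CASP1 with prednisolone, which are 8 of the 16 arrays of the study. The genotype label of the control group reads control, and that of the other group says that CASP1 is active and overexpressed. Both groups received the drug for 24 hours, and the other 8 arrays held the same lines with no treatment. The drug is spelled as a form of prednisone with the samples and as prednisolone in the protocol, and the sources used here give neither its dose nor the vector, nor whether either line was a single clone. By the title of the series, the study asks whether cleavage of the glucocorticoid receptor by CASP1 makes leukaemia cells resistant to glucocorticoids.

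Glucocorticoids enter lymphoid cells and bind the receptor encoded by NR3C1, which leaves its chaperones, moves to the nucleus and switches genes on and off. In lymphoid leukaemia cells this stops the cell cycle and, through proteins of the BCL2 family, leads to apoptosis. CASP1 is the inflammatory caspase that is activated in inflammasomes and matures interleukin 1 beta. Cell division, the folding of secreted proteins, ribosome production and antigen presentation each rest on sets of genes with shared promoter motifs, and these sets organise the results.

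The measured CASP1 signal went against the label. All signals are log2 values made by the authors with RMA, a method that brings arrays to a common scale, and values on 4 arrays are listed by replicate number. CASP1 signal with prednisolone was 6.90, 7.08, 6.97 and 6.86 on the control arrays and 5.38, 4.79, 4.87 and 5.05 on the arrays labelled CASP1. Every array labelled CASP1 was below every control array. The difference, labelled CASP1 minus control as in all differences here, was -1.93 (SE 0.135, 3.82-fold lower, limma adjusted p = 5.1e-08). The exact two-sided permutation test gave p = 0.0286, the smallest p that 4 against 4 arrays allow. Of 9 CASP1 probe sets, 7 were called lower and 0 higher. Where the probes lie relative to the introduced construct was not analysed here, so it is unknown whether they read introduced RNA. An exchange of labels between the lines cannot be told apart from this, and it would turn every direction given here. The second line is therefore called the cells labelled CASP1 throughout, and every direction follows the label.

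NR3C1, the receptor gene, was also lower in the cells labelled CASP1. Its signal was 11.49, 11.39, 11.41 and 11.41 on the control arrays and 11.19, 10.99, 10.88 and 10.95 on the arrays labelled CASP1, and the groups did not overlap. The difference was -0.42 (SE 0.0976, 1.34-fold, limma adjusted p = 0.0059), with p = 0.0286 in the exact two-sided permutation test, and all 10 probe sets were called lower. Without prednisolone the lines differed by -0.03 (adjusted p = 0.92), and the test of the change between these differences gave -0.39 with adjusted p = 0.27. Receptor protein and its cleavage lie outside what these RNA measurements show.

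**Figure D1:**
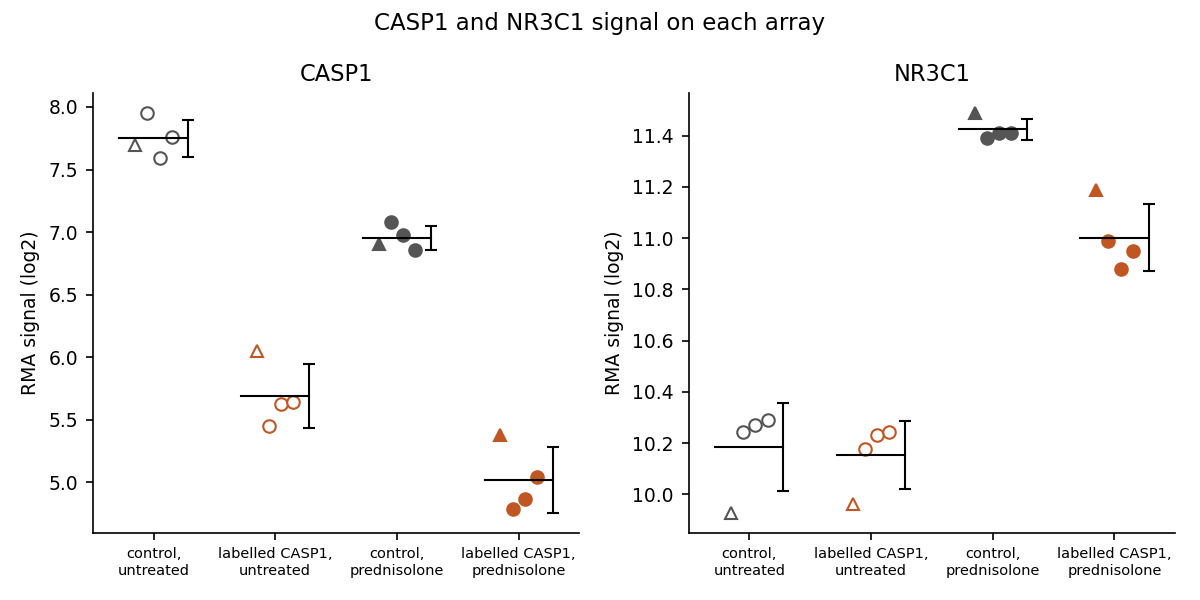
RMA signal (log2) of CASP1 and NR3C1 on each of the 16 arrays, by line and treatment. Points are arrays, triangles mark replicate 1, filled symbols are prednisolone arrays, lines are means of 4 arrays and bars are 1 SD. With prednisolone the CASP1 signal is at most 5.38 on the arrays labelled CASP1 and at least 6.86 on the control arrays.

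On each array 49395 probe sets were read, and 18132 genes were tested. Correlations between arrays of a group lay between 0.9832 and 0.9973. Replicate 1 of the treated cells labelled CASP1 stood apart, with a mean correlation of 0.9838 with its group against 0.9913 to 0.9921 for the other 3 arrays, and replicate 1 of the treated control cells was at 0.9919 against 0.9951 to 0.9954. Where leaving it out ended a call or moved a called difference by over 1.5 times, the value without it is given. The 13 markers of B-cell precursors were bright in both lines, at list means of 10.528 to 10.884 on the arrays labelled CASP1 and 10.907 to 10.973 on the control arrays. These ranges did not overlap, and 3 markers were called lower and 0 higher, where 8.52% of all genes were lower. Their median difference was -0.248, or -0.032 without replicate 1 labelled CASP1. In the marker lists of T and NK cells (14 genes), erythroid cells and platelets (7) and myeloid cells (13), list means were at most 4.449, 4.307 and 3.716 on the treated arrays, and 1 of these 34 genes, ITGAM, was called between the lines. ITGAM had a signal of at most 3.63 and lost its call without any 1 of 10 arrays.

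Under prednisolone 2974 of 18132 genes (16.4%) were called between the lines, at a limma adjusted p under 0.05. Of these, 1429 (7.88%) were higher and 1545 (8.52%) lower in the cells labelled CASP1, and 141 and 154 of them differed at least 2-fold. For 2568 genes (14.2%) the call came with groups of 4 arrays that did not overlap. The median difference over all genes was 0.045, so the lists below are read against a centre near 0, and their counts against 7.88% higher and 8.52% lower. Nothing in the labels ties the replicates to separate cultures, and p-values then cover only the spread among these samples, which may be technical. Without the treated replicate 1 labelled CASP1, 2877 genes were called, of which 2432 were among the 2974. With replicates 2 to 4 of all groups alone, 4062 genes were called, and 2652 of them were among the 2974.

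Among called genes with separate groups, the largest rise was in ARMCX5, an X-linked gene of the armadillo repeat family, with 2.57, 2.78, 2.19 and 2.52 on the control arrays and 6.73, 7.21, 7.0 and 6.96 on the arrays labelled CASP1. The control arrays were near the lowest signals of the platform, while all arrays of the other line were well above them (difference 4.46, SE 0.141, limma adjusted p = 6.8e-13). PRPS2, an enzyme that makes the activated ribose for nucleotide synthesis, had 3.68, 3.73, 3.77 and 3.92 against 6.69, 6.50, 6.92 and 6.96, a 7.95-fold higher signal (2.99, SE 0.124). CD59, which shields cells from complement lysis, had 4.36, 3.63, 4.0 and 4.13 against 5.90, 6.88, 6.94 and 6.61. In both genes every array labelled CASP1 was above every control array. The difference of CD59 was 2.55 (SE 0.204, adjusted p = 2.5e-07). The inducible HSP70 chaperone genes HSPA6 and HSPA1B were higher by 2.18 and 2.0, although near-identical HSP70 genes can share probes. Surface and secreted proteins among the 20 largest rises were KIT, the stem cell factor receptor (1.96), P2RX5, an ATP-gated channel (1.96), ENPP2, which makes lysophosphatidic acid (1.95), SPP1, the matrix protein osteopontin (1.95), and NPY, neuropeptide Y (2.16). RAD54B, a recombination repair gene, differed by 2.28, and KLF10, a transcription factor induced by TGF-beta, by 1.94. The rest of these 20 genes were B4GALT6, NRCAM, HSBP1L1, TACC2, TCEAL8, CPAMD8, STAC3 and SOCS6, with differences from 2.0 to 2.79. With the mean of all probe sets of a gene in place of the brightest, 5 of the 20 moved by over 1.5 times, which were B4GALT6 to 0.99, CD59 to 1.46, NRCAM to 0.98, TACC2 to 1.31 and KIT to 0.72, each still called.

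By the same choice, the largest fall was in P2RY14, a receptor for UDP-sugars, with 10.81, 11.12, 10.97 and 10.90 on the control arrays and 4.19, 7.61, 6.71 and 7.06 on the arrays labelled CASP1. Replicate 1 was the lowest of the latter, and all 4 lay below the control arrays. The difference was -4.55 (SE 0.465, 23.5-fold, limma adjusted p = 3.9e-06), and without replicate 1 labelled CASP1 it was -3.82. LILRB2, an inhibitory immune receptor that binds class I molecules, had 6.77, 6.91, 7.04 and 7.02 against 3.65, 3.44, 4.04 and 3.77. This was a 9.24-fold lower signal (-3.21, SE 0.128), and the arrays labelled CASP1 were near the dim end, where 30% of genes have a mean under 3.839. SCML4, a Polycomb-related gene, had 7.87, 7.61, 7.63 and 7.66 against 4.20, 4.0, 3.63 and 4.32 (difference -3.65, SE 0.145). SH3BP2, an adaptor of immune receptor signalling, had 8.44, 8.28, 8.53 and 8.59 against 4.77, 4.71, 5.31 and 5.30 (difference -3.44, SE 0.163). Neither gene had overlapping groups. CIITA, the master regulator of MHC class II, was lower by -2.18, HLA-DQA1, a class II chain, by -2.02, GSDME, a pore-forming gasdermin, by -2.01, LILRB1 by -1.96 and GZMA, a serine protease of cytotoxic granules, by -1.83. CMPK2, a mitochondrial nucleotide kinase, differed by -3.18, MTFR2, a regulator of mitochondrial fission, by -2.54 and GPR171, a G protein-coupled receptor, by -2.11. The rest of the 20 largest falls, beside CASP1, were LCN6, ATP4B, NRXN3, TDRD9, SPIRE1, CSGALNACT1 and NEDD9, with differences from -1.77 to -2.90. NEDD9, a scaffold of cell adhesion signalling, had 8.21, 9.04, 9.02 and 9.03 against 4.95, 7.84, 7.69 and 7.75. Its call ended in some fits without 1 array, although on replicates 2 to 4 alone it was -1.27 (limma adjusted p = 2.4e-06). Without the treated replicate 1 labelled CASP1 it was -1.07 (adjusted p = 0.049), and without control replicate 2, 3 or 4 it was -1.70 with adjusted p from 0.0625 to 0.0669. With only the prednisolone arrays in the fit its adjusted p was 0.0642. With the mean of all probe sets 6 of these 20 genes moved by over 1.5 times and stayed called, which were SCML4 (-1.58), SH3BP2 (-1.96), CMPK2 (-1.18), CIITA (-1.21), HLA-DQA1 (-0.56) and SPIRE1 (-0.99). Of the 40 genes with the largest differences, 26 had several probe sets, and for 0 of the 40 was any probe set called in the opposite direction.

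**Figure D2:**
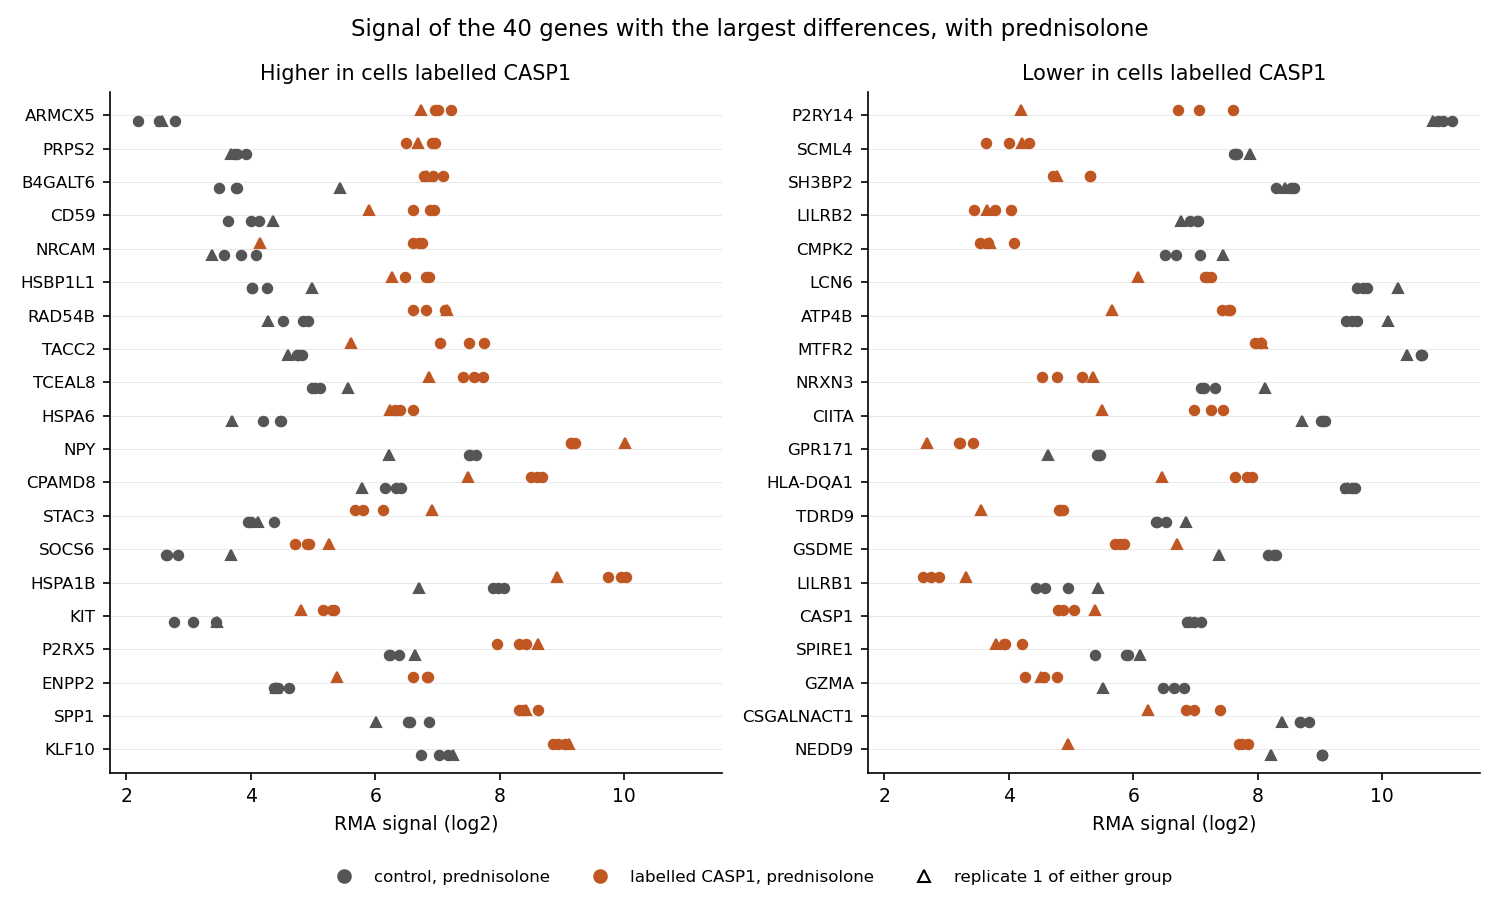
RMA signal (log2, horizontal axis) of the 20 largest rises and 20 largest falls among called genes with separate groups, on the 8 prednisolone arrays, with replicate 1 as triangles. Separate groups were a condition of the choice, and the gaps run from that of ARMCX5 (2.19 to 2.78 against 6.73 to 7.21) to that of NEDD9, whose lowest array at 4.95 is replicate 1 of the cells labelled CASP1.

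Genes of G2 and mitosis were higher as a block in the cells labelled CASP1. Of 36 measured genes, 33 were higher and 0 lower, where 7.88% of all genes were higher, and their median difference was 0.879 against 0.045 over all genes. MKI67, the proliferation antigen Ki-67, had 9.10, 9.22, 9.29 and 9.28 on the control arrays and 11.72, 10.66, 10.81 and 10.85 on the arrays labelled CASP1. The groups were well separated, and replicate 1 was the highest (difference 1.79, SE 0.163, 3.45-fold, limma adjusted p = 1.1e-06, all 6 probe sets called higher). KIF20A, a kinesin of cytokinesis, had 7.18, 6.94, 7.0 and 7.08 against 9.27, 8.36, 8.43 and 8.42 (1.57, SE 0.183). AURKA, a spindle pole kinase, had 9.41, 9.19, 9.11 and 9.10 against 11.30, 10.27, 10.31 and 10.34 (1.35, SE 0.196). Neither gene had overlapping groups. CDC25C, the phosphatase that triggers mitotic entry, differed by 1.17, CCNB1, the mitotic cyclin, by 0.89, and CDK1, its kinase, by 0.67. The 3 genes not called were CENPE (0.44), MAD2L1 (0.36) and KIF11 (0.33), with adjusted p of 0.0539, 0.0536 and 0.0574, and each of them passed without at least 1 single array. The list mean was 10.264, 9.802, 9.768 and 9.791 on the arrays labelled CASP1 and 8.994 to 9.057 on the control arrays, and every array labelled CASP1 was above every control array, with replicate 1 the highest. With replicates 2 to 4 alone, 34 genes were higher and the median was 0.751. MKI67 was at 0.95 with the mean of its probe sets. Without prednisolone 26 of the 36 were higher and 0 lower, and the change was called in 1 of 36, CDC25C (0.51), a call that ended without any 1 of 14 arrays.

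Mitotic genes share a promoter element, the cell cycle homology region, which is bound by the complex that represses them outside G2. Its core, TTTGAA, was searched on both strands in RefSeq promoters of the GRCh38.p14 assembly, each from 250 bases before to 50 bases after the start of a transcript. It was present in 22 of 38 promoters of the list (57.9%), or 20 of the 30 genes with a promoter in the table, and in 15.2% of all 35116 promoters. The promoters of MKI67 (chr10:128126374-128126673, minus strand) and CDC25C (chr5:138331755-138332054, minus strand) are shown because they hold the core just before the start site in genes that were higher. Capitals mark each TTTGAA, and the match describes the sequence and not binding.

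MKI67: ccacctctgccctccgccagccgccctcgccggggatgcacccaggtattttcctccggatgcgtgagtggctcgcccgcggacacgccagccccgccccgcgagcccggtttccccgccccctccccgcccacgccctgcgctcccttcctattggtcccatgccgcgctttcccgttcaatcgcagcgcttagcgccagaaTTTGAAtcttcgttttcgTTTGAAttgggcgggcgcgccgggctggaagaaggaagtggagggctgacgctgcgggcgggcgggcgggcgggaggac

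CDC25C: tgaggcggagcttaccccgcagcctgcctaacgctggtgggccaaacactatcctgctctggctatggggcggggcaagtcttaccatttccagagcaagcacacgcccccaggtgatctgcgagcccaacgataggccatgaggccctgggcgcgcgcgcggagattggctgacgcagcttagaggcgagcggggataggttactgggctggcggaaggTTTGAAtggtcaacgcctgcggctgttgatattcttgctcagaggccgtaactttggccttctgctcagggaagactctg

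Replication-dependent histone genes, which package newly made DNA, were also higher. Of 13 measured genes, 9 were higher and 0 lower, with a median difference of 0.572. H2BC12 had 7.71, 7.64, 7.47 and 7.45 on the control arrays and 9.17, 8.76, 8.92 and 8.86 on the arrays labelled CASP1, with no overlap (1.36, SE 0.0925, 2.56-fold, and 0.90 when its probe sets were averaged). H4C8 differed by 1.21 and H3C4 by 1.19. H2BC21 was at 0.75, and its call ended when its probe sets were averaged (0.25, adjusted p = 0.21). These genes are members of a family of near-identical copies, so probes may be shared between them. Most histone messages lack a poly(A) tail, and the sources used here do not state how the labelling reaction was primed.

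Genes of DNA replication and S phase were higher in part. Of 40 measured genes, 16 were higher and 1 lower, UHRF1 (-0.40), with a median difference of 0.246. CDT1, which licenses replication origins, had 9.0, 8.74, 8.69 and 8.77 on the control arrays and 9.87, 9.88, 10.07 and 10.05 on the arrays labelled CASP1, with no overlap (1.17, SE 0.0954, 2.25-fold, limma adjusted p = 3e-07). LIG1, which joins Okazaki fragments, had 7.51, 7.59, 7.61 and 7.46 against 8.41, 7.97, 8.42 and 8.29 (0.73, SE 0.0987), again with separate groups. ORC1, an origin recognition subunit, differed by 0.63, and RRM2, a ribonucleotide reductase subunit, by 0.89, a call that ended when its probe sets were averaged (0.31, adjusted p = 0.10). The replication list depended on replicate 1. Its mean was 8.820 on control replicate 1 and 8.709 on replicate 1 labelled CASP1, so the groups overlapped through these arrays. The other 3 control arrays lay between 8.560 and 8.634 and the other 3 arrays labelled CASP1 between 8.936 and 9.020. On replicates 2 to 4 alone, where 22.4% of all genes were called against 16.4% with all arrays, 27 genes were higher and 1 was lower. The median was then 0.378. Without prednisolone the list leaned the other way, with 1 higher and 14 lower of 40 and a median of -0.214. The change between the 2 differences was above 0 in all 40 genes and called in 10, against 0.524% of all genes with a called change above 0.

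Among 25 DNA repair genes 10 were higher and 3 lower, against 7.88% and 8.52% of all genes. RAD54L, a recombination motor protein, had 7.84, 7.54, 7.53 and 7.57 on the control arrays and 8.75, 8.24, 8.46 and 8.54 on the arrays labelled CASP1, with no overlap (0.88, SE 0.106). FANCI, of the Fanconi pathway, differed by 0.63 and EXO1, a DNA end-resecting nuclease, by 0.59. PARP1, a sensor of DNA breaks, was at -0.59. PARP1 was at -0.39 (adjusted p = 0.012) without control replicate 1, and its adjusted p was 0.0516 with only the prednisolone arrays in the fit.

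The regulators of the G1 to S transition moved in both directions, with 9 of 25 genes higher and 4 lower, against 7.88% and 8.52% of all genes. SKP2, which marks the CDK inhibitor p27 for destruction, had 6.06, 6.25, 5.92 and 5.91 on the control arrays and 7.83, 7.48, 7.59 and 7.66 on the arrays labelled CASP1, with no overlap (1.60, SE 0.104, 3.04-fold, limma adjusted p = 2.4e-08). Of its 2 probe sets 1 was called higher and 1 had a negative difference without a call, and their mean gave 0.70. CCNE1, the cyclin that drives S phase entry, was higher by 0.94 and its partner CDK2 by 0.43. The CDK inhibitors CDKN1A, CDKN1C and CDKN1B, which block the same kinases, were higher as well, by 1.58, 0.70 and 0.58. The 4 lower genes were E2F3 (-0.73), RB1 (-0.65), CDK6 (-0.57) and E2F4 (-0.44), the last with its call ended when its probe sets were averaged (-0.33, adjusted p = 0.054).

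MHC class II genes were lower as a block. Of 15 measured genes, 10 were lower and 0 higher, where 8.52% of all genes were lower, all 15 had a negative difference and the median was -0.811. CIITA had 8.71, 9.05, 9.08 and 9.01 on the control arrays and 5.49, 6.97, 7.25 and 7.43 on the arrays labelled CASP1. HLA-DMA, a chain of the peptide-loading DM molecule, had 9.42, 9.54, 9.50 and 9.52 against 7.04, 8.52, 8.49 and 8.50. Both genes had separate groups, and replicate 1 was the lowest array of the second line by over 1 log2 unit in each. The difference of HLA-DMA was -1.35 (SE 0.230, limma adjusted p = 0.0005). HLA-DPB1 had 11.51, 11.28, 11.20 and 11.32 against 9.38, 10.37, 10.48 and 10.49 (-1.14, SE 0.180), and CD74, the invariant chain, had 11.23, 10.76, 10.58 and 10.67 against 9.78, 9.90, 10.18 and 10.13 (-0.81, SE 0.136). HLA-DRB1 was lower by -1.04 and RFX5, a factor that binds class II promoters, by -0.51, which was -0.34 without replicate 1 labelled CASP1 and at adjusted p = 0.0568 with only the prednisolone arrays in the fit. HLA-DRA, the alpha chain of DR, was at -0.31 with adjusted p = 0.061, and leaving out 1 array labelled CASP1 moved it from -0.17 (without replicate 1, adjusted p = 0.14) to -0.36 (without replicate 2, adjusted p = 0.040). The list mean was 9.423 to 9.466 on the control arrays and 7.884, 8.768, 8.838 and 8.836 on the arrays labelled CASP1. On replicates 2 to 4 alone 10 genes were still called lower, and the median was -0.643. Without prednisolone 2 of the 15 were lower and 0 higher, with a median of -0.142, and the change was called in 0 of 15. Class II genes are polymorphic and have close relatives, so a probe set can read more than 1 of them.

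Class II promoters carry an X box and a Y box on which CIITA is assembled. The Y box letters CTGATTGG were found in 4 of 18 promoters of the list (22.2%) and in 3.97% of all promoters, on either strand. The promoters of HLA-DMA (chr6:32953048-32953347, minus strand) and HLA-DRB1 (chr6:32589799-32590098, minus strand), from the RefSeq GRCh38.p14 reference, are shown as examples of lower genes with the box. Capitals mark the Y box.

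HLA-DMA: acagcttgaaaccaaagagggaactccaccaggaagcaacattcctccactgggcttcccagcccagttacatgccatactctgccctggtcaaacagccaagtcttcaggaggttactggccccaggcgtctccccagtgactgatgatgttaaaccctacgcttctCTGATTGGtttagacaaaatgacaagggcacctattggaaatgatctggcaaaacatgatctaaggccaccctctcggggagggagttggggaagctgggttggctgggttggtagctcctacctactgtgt

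HLA-DRB1: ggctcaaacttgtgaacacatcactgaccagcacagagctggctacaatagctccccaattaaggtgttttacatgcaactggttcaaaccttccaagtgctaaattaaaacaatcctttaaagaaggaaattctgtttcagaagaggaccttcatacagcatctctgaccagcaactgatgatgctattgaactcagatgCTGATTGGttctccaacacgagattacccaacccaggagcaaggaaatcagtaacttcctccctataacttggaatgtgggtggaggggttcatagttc

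In the class I pathway 7 of 19 genes were lower and 2 higher, where 8.52% and 7.88% of all genes were. The count of higher genes was thus near the share of all genes. These were the heavy chain genes HLA-C (0.38) and HLA-B (0.27). The call of HLA-B ended without replicate 3 labelled CASP1 (0.25) and with only the prednisolone arrays in the fit (adjusted p = 0.0547), and the mean of its probe sets was 0.51. The lower ones belonged mainly to peptide trimming and loading. ERAP1, which trims peptides, had 8.65, 8.51, 8.47 and 8.50 on the control arrays and 7.27, 7.77, 7.81 and 7.85 on the arrays labelled CASP1, with no overlap (-0.86, SE 0.107). TAPBPL, a peptide editor, was at -1.02. With the mean of their probe sets ERAP1 was at -0.39 and TAPBPL at -0.57, both called. PSMB8, an immunoproteasome subunit, was at -0.46.

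Chaperones of the endoplasmic reticulum were lower, and this compartment folds secreted and membrane proteins. Of 22 genes 14 were lower and 0 higher, with a median difference of -0.512. HSPA5, the main chaperone BiP, had 11.89, 11.51, 11.48 and 11.45 on the control arrays and 10.02, 10.38, 10.66 and 10.48 on the arrays labelled CASP1, with no overlap (-1.19, SE 0.118, 2.29-fold, limma adjusted p = 2.8e-06, all 6 probe sets called lower). MANF, a secreted stress factor, had 10.96, 10.76, 10.62 and 10.77 against 9.33, 9.92, 10.02 and 9.88 (-0.99, SE 0.126). SDF2L1, a partner of BiP, differed by -1.0, the disulfide isomerase PDIA4 by -0.85 and CALR, the calcium-binding chaperone calreticulin, by -0.86. The CALR probe set was dim, at 5.51 to 5.68 on the control arrays and 4.31 to 4.97 on the arrays labelled CASP1. XBP1, a transcription factor of the response, was at -0.58 and DNAJB9 and HERPUD1, both also induced by it, at 0.06 and -0.09 with no call, although HERPUD1 was at -0.23 (adjusted p = 0.040) on replicates 2 to 4 alone. PDIA3, a partner of calreticulin, was at -0.84, a call that ended without control replicate 1 (-0.60, adjusted p = 0.080) or replicate 2 (-0.74, 0.069) or 4 (-0.79, 0.057) of the cells labelled CASP1. With replicates 2 to 4 alone PDIA3 was at -0.75 (adjusted p = 4.8e-05). The list mean was 9.151 to 9.298 on the control arrays and 8.698 to 8.760 on the arrays labelled CASP1, with replicate 1 inside the range of the latter. Without prednisolone 7 of the 22 were lower and 0 higher, and the change was called in 0.

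Some of these genes are known for the endoplasmic reticulum stress element, in which CCAAT and CCACG are separated by 9 bases. It was found in 9 of 26 promoters of the list (34.6%), or 7 of 20 genes, and in 27 of 35116 promoters overall (0.0769%). The RefSeq GRCh38.p14 promoters of HSPA5 (chr9:125241294-125241593, minus strand) and CALR (chr19:12938359-12938658, plus strand) are shown because both hold it, and in CALR it lies on the opposite strand. Capitals mark the fixed letters of the element.

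HSPA5: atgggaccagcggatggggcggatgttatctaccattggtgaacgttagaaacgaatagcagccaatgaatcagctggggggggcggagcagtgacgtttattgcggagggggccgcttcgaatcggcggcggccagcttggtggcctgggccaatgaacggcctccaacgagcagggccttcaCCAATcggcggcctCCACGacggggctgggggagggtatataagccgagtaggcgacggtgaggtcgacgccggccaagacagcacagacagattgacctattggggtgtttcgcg

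CALR: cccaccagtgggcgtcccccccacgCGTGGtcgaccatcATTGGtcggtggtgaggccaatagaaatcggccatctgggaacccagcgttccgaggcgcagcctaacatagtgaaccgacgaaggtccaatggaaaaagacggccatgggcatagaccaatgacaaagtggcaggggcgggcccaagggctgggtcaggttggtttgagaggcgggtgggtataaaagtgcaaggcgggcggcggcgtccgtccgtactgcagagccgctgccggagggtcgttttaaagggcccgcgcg

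Genes of nucleolar ribosome biogenesis were lower too. Of 34 measured genes, 19 were lower and 0 higher, with a median difference of -0.427. POLR1B, a subunit of RNA polymerase I, had 7.91, 7.87, 7.46 and 7.59 on the control arrays and 5.95, 6.86, 6.69 and 6.79 on the arrays labelled CASP1, with no overlap (-1.14, SE 0.214, 2.20-fold, limma adjusted p = 0.0012). POLR1A, the largest subunit, was at -1.12 (SE 0.166). RRS1, an assembly factor of the large ribosomal subunit, had 8.77, 8.42, 8.33 and 8.36 against 7.69, 7.35, 7.68 and 7.39, again with separate groups (-0.94, SE 0.118), and PPAN was at -0.92. NCL, the abundant nucleolin, was at -0.36, while NPM1 (0.10) and FBL (0.04) were not called. The list mean was 8.390 to 8.562 on the control arrays and 7.930 to 8.103 on the arrays labelled CASP1. Without prednisolone 28 of the 34 were lower and 0 higher, with a median of -0.622, and the change was called in 0. The 32 cytosolic ribosomal protein genes, whose products these factors assemble, had 0 calls in limma's test, a median difference of 0.026 and differences from -0.132 to 0.175.

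Many of these promoters hold the E box CACGTG, a site of MYC and related factors. It was present in 14 of 34 promoters of the list (41.2%) and in 7.26% of all promoters, and MYC itself was at -0.24 with adjusted p = 0.065. It lay at -0.29 (adjusted p = 0.042) without replicate 3 labelled CASP1 and at -0.13 (adjusted p = 0.22) on replicates 2 to 4 alone. The RefSeq GRCh38.p14 promoters of UTP4 (chr16:69132399-69132698, plus strand), which was at -0.59, and GAR1 (chr4:109815512-109815811, plus strand), which was at -0.58, are shown with the E box in capitals. UTP4 acts in small subunit processing, and GAR1 is a protein of box H/ACA particles. Of 11 genes of the MYC and MAX network 2 were higher and 2 lower, against 7.88% and 8.52% of all genes. The antagonists MXD1 (1.16) and MXD3 (0.76) were higher, and with the mean of their probe sets they were at 0.77 and 0.31. The antagonist MXD4 (-0.48) and MAX (-0.35), the shared partner of these factors, were lower, and the call of MXD4 ended without any 1 of 4 arrays and that of MAX when its probe sets were averaged (-0.22, adjusted p = 0.082).

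UTP4: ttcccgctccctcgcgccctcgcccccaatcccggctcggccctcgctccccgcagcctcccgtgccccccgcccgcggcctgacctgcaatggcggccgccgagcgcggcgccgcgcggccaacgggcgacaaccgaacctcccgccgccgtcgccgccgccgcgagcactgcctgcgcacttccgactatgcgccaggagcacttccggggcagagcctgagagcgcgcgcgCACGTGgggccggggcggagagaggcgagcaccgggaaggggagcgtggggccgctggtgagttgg

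GAR1: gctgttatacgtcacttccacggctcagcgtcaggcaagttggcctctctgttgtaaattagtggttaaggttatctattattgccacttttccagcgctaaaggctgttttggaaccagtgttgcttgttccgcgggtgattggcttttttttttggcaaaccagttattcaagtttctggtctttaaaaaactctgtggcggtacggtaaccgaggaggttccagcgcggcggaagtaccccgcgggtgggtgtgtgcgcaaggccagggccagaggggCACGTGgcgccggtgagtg

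Of 23 p53 targets 10 were higher and 1 lower, against 7.88% and 8.52% of all genes, with a median difference of 0.422. CDKN1A, which encodes the CDK inhibitor p21, had 9.45, 9.08, 8.98 and 8.95 on the control arrays and 11.61, 10.20, 10.55 and 10.41 on the arrays labelled CASP1. The groups did not overlap, and replicate 1 was the highest (1.58, SE 0.263, 2.98-fold, limma adjusted p = 0.00044). DDB2, a sensor of ultraviolet damage, had 8.26, 8.45, 8.40 and 8.32 against 10.06, 9.41, 9.85 and 9.70 (1.39, SE 0.122), and XPC, its partner in repair, differed by 1.02. The death receptor gene TNFRSF10B was higher by 0.88. TP53I3, a quinone oxidoreductase, was lower, with 7.43, 7.10, 6.74 and 6.72 against 5.32, 5.53, 5.96 and 5.90 (-1.32, SE 0.166). MDM2, the ubiquitin ligase of p53, was at -0.24 and not called, but was at -0.46 (adjusted p = 0.030) without control replicate 1. Without replicate 1 labelled CASP1 8 genes were higher and 1 lower, with a median of 0.255. On replicates 2 to 4 alone, where 22.4% of all genes were called, 12 genes were higher and 3 lower, and the median was 0.275. Without prednisolone 10 were higher and 1 lower.

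Calls of FAS and BBC3, p53 targets that promote death, ended in some fits without 1 array. FAS had 6.62, 5.96, 5.72 and 5.90 on the control arrays and 7.98, 6.76, 6.85 and 6.72 on the arrays labelled CASP1 (1.03, SE 0.288, limma adjusted p = 0.020), and its call ended without replicate 1 labelled CASP1 (0.72) or control replicate 2, 3 or 4 (1.0, 0.92 and 0.98). BBC3, the BH3-only protein PUMA, had 7.21, 7.11, 7.10 and 7.21 against 9.38, 7.67, 8.02 and 7.71 (1.04, SE 0.320, adjusted p = 0.032). The groups of BBC3 did not overlap, but its call ended without replicate 1 labelled CASP1 (0.65, adjusted p = 0.086) or any 1 of the 4 control arrays (1.03, 1.02, 1.06 and 1.06), and when its probe sets were averaged (0.89, adjusted p = 0.086). Restricted to replicates 2 to 4, FAS was called at 0.91 and BBC3 at 0.66 (limma adjusted p = 4.8e-06 and 0.0002).

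In the BCL2 family, on which glucocorticoid killing depends, the inhibitor BCL2 and its opponent BCL2L11 were followed. BCL2 had 6.51, 6.39, 6.28 and 6.35 on the control arrays and 6.99, 5.86, 5.96 and 5.79 on the arrays labelled CASP1, so the groups overlapped through replicate 1 alone. With all arrays the difference was -0.23 (SE 0.213, limma adjusted p = 0.53). Without replicate 1 labelled CASP1 it was -0.51 (adjusted p = 0.026), and with replicates 2 to 4 alone -0.47 (adjusted p = 0.00069). Of the 6 BCL2 probe sets, on all arrays, 3 had a positive and 3 a negative difference, and 0 were called. BCL2L11, the BH3-only protein BIM, had 9.06, 8.37, 8.31 and 8.30 against 8.04, 7.59, 7.64 and 7.86, with no overlap (-0.73, SE 0.142, adjusted p = 0.0016). Of its 14 probe sets 6 were called lower, and their mean was at -0.32. Of 6 measured anti-apoptotic genes 2 were higher, MCL1 (0.35) and BCL2L2 (0.38), where 7.88% of all genes were higher. The call of MCL1 ended without control replicate 4 (0.33) or replicate 3 or 4 labelled CASP1 (0.27 and 0.32) and with only the prednisolone arrays in the fit (adjusted p = 0.0613), and that of BCL2L2 when its probe sets were averaged (0.13, adjusted p = 0.45). CFLAR, which blocks death receptor signalling, was higher by 0.94, but 2 of its 9 probe sets were called and their mean was at 0.10 (adjusted p = 0.37). BIRC5, the mitotic inhibitor of apoptosis survivin, was higher by 0.73.

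Genes that glucocorticoids induce did not move together between the treated lines. Of 43 genes 8 were higher and 5 lower, or 13 calls where 16.4% of all genes were called, and the median difference was 0.040. TSC22D3, the glucocorticoid-induced leucine zipper, had a mean of 12.502 on the control arrays and 12.673 on the others (0.17, adjusted p = 0.43), and FKBP5, a co-chaperone that restrains the receptor, was at 11.856 and 11.673 (-0.18, adjusted p = 0.52). Both had overlapping groups. On the untreated arrays TSC22D3 lay at 7.70 to 7.91 for the control line and 6.76 to 7.08 for the other line, so the treated arrays of both lines were far above the untreated ones. The untreated lines differed by -0.92 in TSC22D3, and the change was 1.09. RCAN1, a calcineurin inhibitor, had 11.51, 11.43, 11.35 and 11.40 against 9.08, 10.09, 10.24 and 10.14, with no overlap (-1.54, SE 0.182, 2.90-fold, limma adjusted p = 1.7e-05). ISG20, an RNA-degrading enzyme, differed by -1.29 and IL7R, the interleukin 7 receptor, by -0.70. The higher genes were ZBTB16 (0.92), ERRFI1 (0.89), GADD45A (0.73), CDKN1C (0.70), KLF9 (0.66), TXNIP (0.58), MAP2K3 (0.57) and SNN (0.45). The call of SNN ended without any 1 of 5 arrays, and KLF9 was at 0.38 with the mean of its probe sets. Restricted to replicates 2 to 4, where 22.4% of all genes were called, 11 were higher and 8 lower, with a median of -0.046.

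In the list of the glucocorticoid receptor and its partners 6 of 21 genes were lower and 1 higher, where 8.52% and 7.88% of all genes were. NCOA1, a coactivator of nuclear receptors, had 7.08, 7.04, 6.96 and 7.22 on the control arrays and 6.36, 6.41, 6.56 and 6.61 on the arrays labelled CASP1, with no overlap and all 6 probe sets called lower (-0.59, SE 0.1, limma adjusted p = 0.00052). PPID and BAG1, which act with HSP90 and HSP70, were at -0.48 and -0.45. FKBP4, which helps the receptor move to the nucleus, was at 0.37, a call that ended without any 1 of 4 arrays (0.31 to 0.35) and when its probe sets were averaged (0.21, adjusted p = 0.061). HSP90AA1 (-0.16) and HSP90AB1 (0.04), the chaperones that hold the receptor in its binding state, were not called.

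Of 25 inflammasome and pyroptosis genes 4 were lower and 2 higher, where 8.52% and 7.88% of all genes were, so the share of higher genes was that of the background. GSDME had 7.37, 8.26, 8.16 and 8.30 on the control arrays and 6.70, 5.71, 5.79 and 5.85 on the arrays labelled CASP1. The 2 replicate 1 arrays lay closest to each other, but the groups did not overlap (-2.01, SE 0.232, 4.03-fold, limma adjusted p = 1.4e-05). IL1B, the cytokine that CASP1 matures, had 4.47, 5.58, 5.46 and 5.30 against 3.84, 4.43, 4.38 and 4.18 (-1.0, SE 0.210), a narrow separation at low signal. CASP4, a related inflammatory caspase, was at -0.55, and its call ended without replicate 1 labelled CASP1 (-0.43, adjusted p = 0.058) or control replicate 2 (-0.50, adjusted p = 0.061). PYCARD, the inflammasome adaptor ASC, was at 0.43, and its call ended without any 1 of 6 arrays (0.38 to 0.43). With replicates 2 to 4 alone CASP4 was at -0.52 and PYCARD at 0.49 (adjusted p = 0.0012 and 0.00043). NLRP3, the sensor named in the series title, was dim in both lines, at 4.546 and 4.475 (adjusted p = 0.77).

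Immune receptors of the LILR family, which set thresholds of leukocyte activation, were listed together with LAIR1. Of these 9 genes 5 were lower and 0 higher, where 8.52% of all genes were lower. Beside LILRB2, LILRB1 had 5.43, 4.43, 4.59 and 4.95 on the control arrays and 3.31, 2.62, 2.75 and 2.88 on the arrays labelled CASP1 (-1.96, SE 0.195). LILRA2, an activating member, had 9.90, 9.21, 9.30 and 9.56 against 8.13, 7.73, 8.03 and 7.86 (-1.55, SE 0.205), and LAIR1, a collagen receptor, differed by -1.38. None of these 3 had overlapping groups, and all 7 probe sets of LILRA2 and all 4 of LAIR1 were called lower. Family members have similar sequences, so a probe set can read more than 1 of them.

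The signalling lists of the B lineage moved in both directions. Of 18 genes of the pre-B receptor and recombination 3 were higher and 6 lower, and of 20 genes around the interleukin 7 receptor 2 and 2, where 16.4% of all genes were called. SYK, the kinase next to the pre-B receptor, had 9.66, 9.42, 9.42 and 9.38 on the control arrays and 7.53, 8.77, 8.92 and 8.97 on the arrays labelled CASP1 (-0.92, SE 0.215, limma adjusted p = 0.0062). Without replicate 1 labelled CASP1 it was -0.58 (adjusted p = 0.00015), and with only the prednisolone arrays in the fit its adjusted p was 0.0515. BLK, a Src-family kinase, had 8.52, 8.59, 8.55 and 8.60 against 7.80, 7.68, 8.02 and 8.06 (-0.67, SE 0.0925). Both genes had separate groups. MZB1, a chaperone of immunoglobulin, differed by -1.14, and the ETS factors ETS1 and ERG by -0.84 and -0.95. ERG was at -0.55 with replicates 2 to 4 alone and at -0.43 when its probe sets were averaged. Of its 12 probe sets 7 were called lower and 1 higher. DUSP6, a phosphatase that limits ERK, had 10.94, 10.90, 10.83 and 10.88 against 9.36, 9.65, 9.70 and 9.60, with no overlap (-1.31, SE 0.154), and DUSP10, which acts on p38 and JNK, was at -0.92. They were the 2 lower genes among 24 of MAPK feedback and immediate early response, where 8.52% of all genes were lower. Of the 24 genes 6 were higher, against 7.88% of all genes, led by IER5 (1.21) and JUN (1.08), the AP-1 subunit. The count of higher genes fell to 3 without control replicate 2, 3 or 4. INPP5D, the phosphatase SHIP1 that opposes PI3 kinase, was higher by 0.73. Of 31 B-cell transcription factors 5 were lower and 1 higher, a share near the 16.4% of all genes called. On replicates 2 to 4 alone 11 were lower and 5 higher, where 22.4% of all genes were called. PAX5 (0.04) and EBF1 (-0.28), which define the lineage, were not called, and EBF1 lay between -0.16 and -0.33 when 1 array labelled CASP1 was left out, without replicate 1 and replicate 4 respectively (adjusted p = 0.19 and 0.049).

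In metabolism the calls differed by list. Of 20 genes of cholesterol synthesis 6 were higher and 0 lower, where 7.88% and 8.52% of all genes were, with a list median of 0.145. Among the higher genes were MSMO1 (0.65), EBP (0.60) and FDPS (0.53), enzymes of the sterol and isoprenoid steps. SDHA, a subunit of respiratory complex II, had 10.20, 9.78, 9.78 and 9.73 on the control arrays and 10.61, 10.47, 10.81 and 10.63 on the arrays labelled CASP1, with no overlap (0.76, SE 0.108). Of 26 glycolysis and hypoxia genes 2 were lower and 1 higher, fewer than the 16.4% of all genes called. On replicates 2 to 4 alone 12 were lower and 5 higher, where 22.4% of all genes were called. The glucose transporter SLC2A1 had 7.29, 8.21, 8.23 and 8.24 against 6.64, 6.96, 7.24 and 7.25 (-0.97, SE 0.236, limma adjusted p = 0.0082, and -0.60 when its probe sets were averaged). Replicate 1 was the lowest array of both groups. HK2, the first enzyme of glycolysis, had 9.09, 10.27, 10.35 and 10.32 against 7.95, 8.86, 9.18 and 9.10, and the groups overlapped through control replicate 1. Its difference was -1.24 (adjusted p = 0.041), and leaving out 1 array ended the call in 5 cases, namely control replicates 2, 3 and 4 (-1.15, -1.12 and -1.13) and replicates 1 and 2 labelled CASP1 (-0.96 and -1.26), while replicates 2 to 4 alone gave -1.27 with adjusted p = 3.3e-07. ARRDC4, an arrestin that curbs glucose uptake, was higher by 1.09 with all 3 probe sets called.

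**Figure D3:**
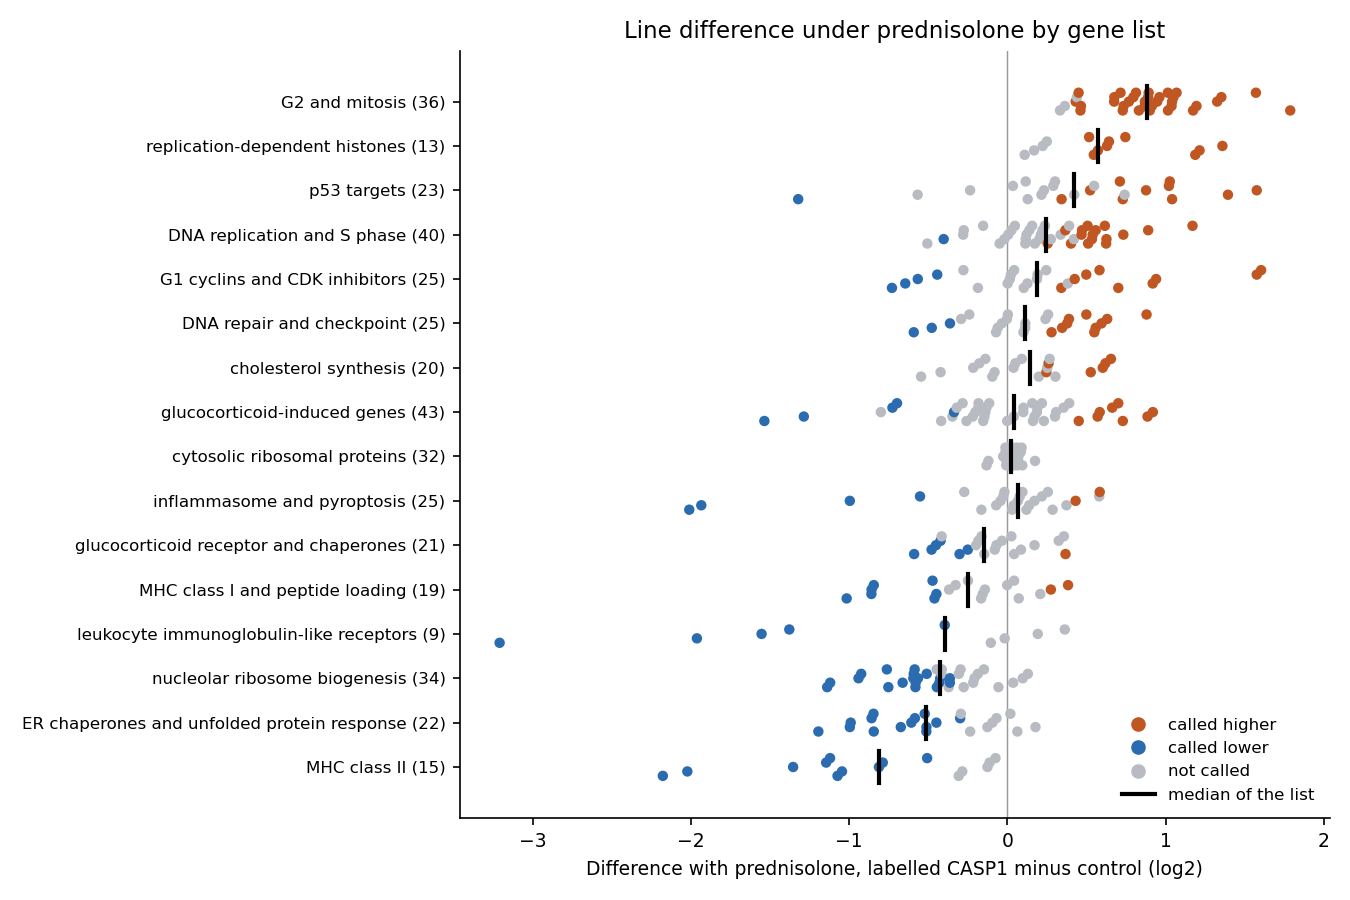
Difference with prednisolone, labelled CASP1 minus control (log2), of each measured member of 16 gene lists, with the number of members in brackets, called members in colour and the list median as a black bar. Medians run from 0.879 for G2 and mitosis to -0.811 for MHC class II, and the 32 cytosolic ribosomal protein genes sit near 0.

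**Figure D4:**
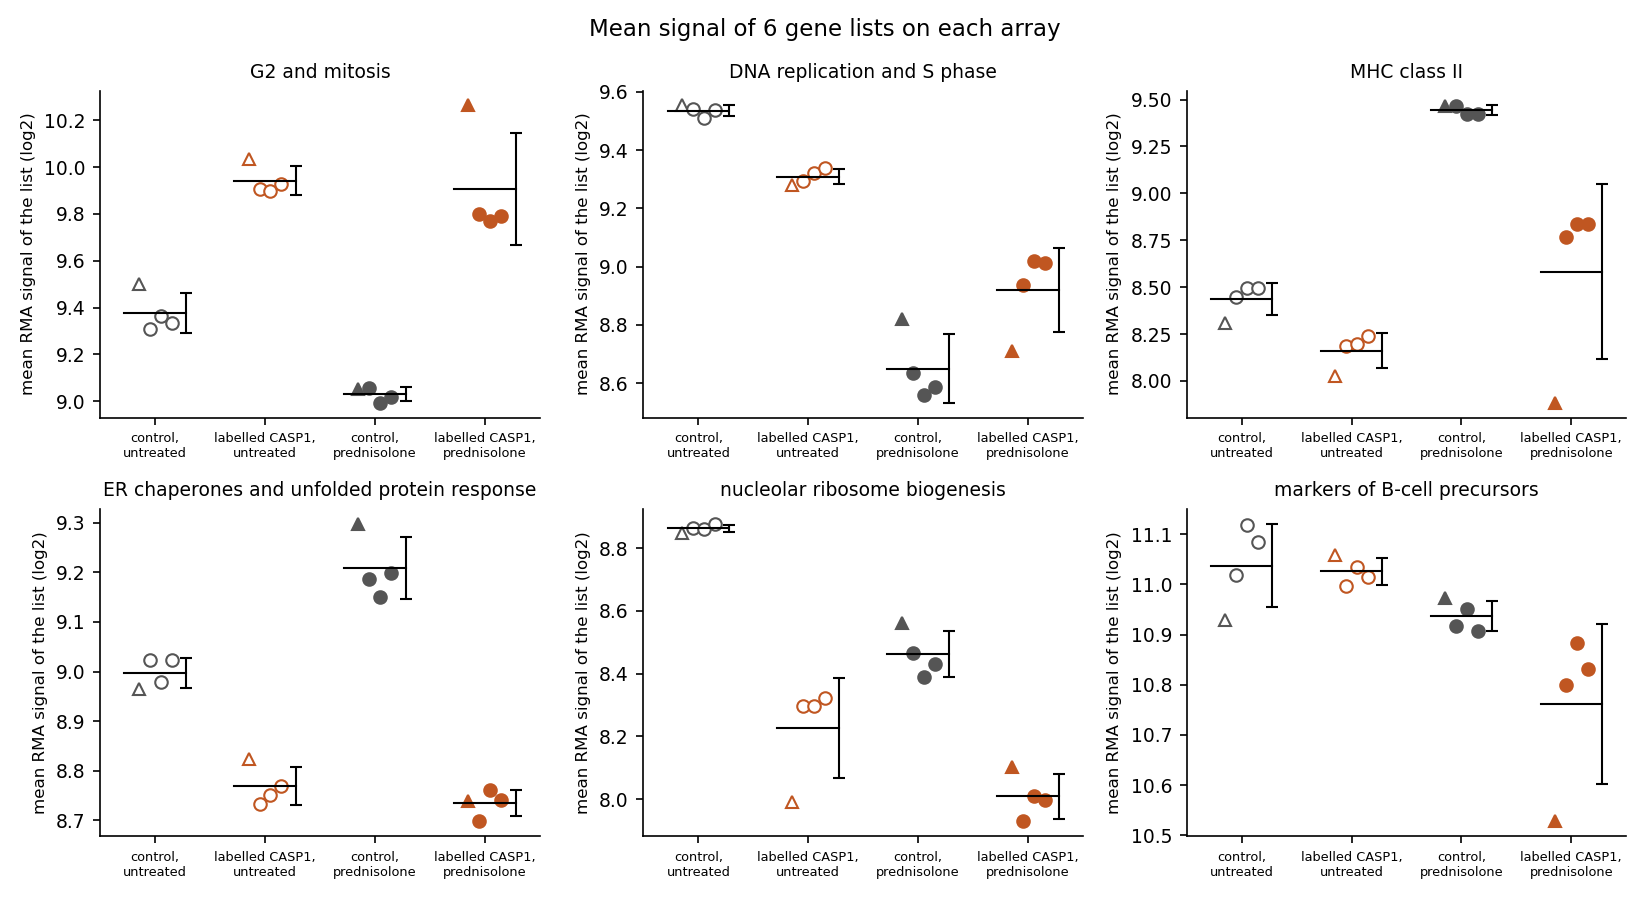
Mean RMA signal (log2) of 6 gene lists on each of the 16 arrays by line and treatment, with replicate 1 as triangles, prednisolone arrays filled, lines for means of 4 arrays and bars of 1 SD. The treated lines are separate for mitosis, class II, endoplasmic reticulum and nucleolar genes, while for DNA replication the 2 treated replicate 1 arrays (8.820 and 8.709) run against the other pairs.

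To ask which differences depended on the drug, the same lines were compared on the 8 untreated arrays, which the first comparison does not share. Without prednisolone 2552 genes (14.1%) were called, 1065 (5.87%) higher and 1487 (8.2%) lower. Of the 1429 genes higher with prednisolone 589 (41.2%) were also higher without it, which is 55.3% of those higher without it. Of the 1545 lower genes 863 (55.9%) were also lower without it, or 58% of those lower without it. Differences with and without the drug had r = 0.701 across 18132 genes, which are not independent replicates, and both fits used 1 residual spread per gene. The change of the difference was called in 161 genes (0.888%), 95 (0.524%) above 0 and 66 (0.364%) below 0. Of these 161 genes 78 were called with the drug but not without it, 48 without but not with it, 35 in both and 0 in neither. The number of called changes depended on single arrays. It was 268 without the treated replicate 1 labelled CASP1, 102 and 96 without treated control replicate 3 or 4, 103 and 102 without untreated control replicate 3 or 4, and 99 and 98 without replicate 2 or 3 of the untreated cells labelled CASP1. With replicates 2 to 4 alone 727 changes were called.

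For genes such as P2RY14 and LILRB2 the lines differed with the drug and not detectably without it. On the untreated arrays P2RY14 lay at 3.30 to 3.76 in the control line and 2.70 to 3.40 in the other line. All these values were under 3.839, near the floor of the platform. LILRB2 had 3.05, 2.75, 2.47 and 2.70 on the untreated control arrays and 2.57, 2.38, 2.45 and 2.63 on the untreated arrays labelled CASP1, all near the dimmest signals (difference -0.23, adjusted p = 0.30), and its change was -2.98 (SE 0.181, limma adjusted p = 8.6e-08). GPR171 (change -2.20), TDRD9 (-2.14), CSGALNACT1 (-1.74) and LILRB1 (-1.80) were of the same kind. PIEZO1, a mechanically gated channel, and RNF166, a ubiquitin ligase, ran upward. PIEZO1 had 8.61, 9.21, 9.30 and 9.24 on the treated control arrays and 10.28, 10.22, 10.84 and 10.63 on the treated arrays labelled CASP1 (1.40, SE 0.177), against -0.01 without the drug.

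Other genes differed without the drug and came together with it. TXNIP, an inhibitor of glucose uptake, was higher by 3.22 in untreated cells labelled CASP1, and with prednisolone it had 12.32, 12.90, 12.88 and 12.82 against 13.19, 13.30, 13.39 and 13.37, a difference of 0.58 (change -2.63, SE 0.169). TP53INP1, a stress-induced regulator of autophagy, was higher by 2.25 without the drug and at -0.57 with it (adjusted p = 0.055). Leaving out 1 array labelled CASP1 moved the latter from -0.34 (without replicate 1, adjusted p = 0.16) to -0.68 (without replicate 3, adjusted p = 0.033). Its change was -2.81, or -1.37 with the mean of its 2 probe sets. BCL2 was lower by -1.87 without the drug and at -0.23 with it (change 1.63, SE 0.302, adjusted p = 0.012, and 1.02 when its probe sets were averaged). IL7R was lower by -1.85 without it and by -0.70 with it (change 1.15, SE 0.118). CAPSL and GLDC, the glycine-cleaving decarboxylase, had changes of 1.64 and 1.45. GLDC was at -0.69 with the drug, a call that ended without control replicate 1 (-0.48, adjusted p = 0.074).

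In 11 genes the lines differed in opposite directions with and without prednisolone, each with a called change. Higher with the drug and lower without it were GINS2, of the replicative helicase (0.54 and -0.49), RFC5, of the clamp loader (0.47 and -0.42), IFI30, a lysosomal thiol reductase (0.35 and -0.46), and PTGER2, a prostaglandin receptor (0.45 and -0.38). Lower with it and higher without it was NCK2, an adaptor (-0.59 and 0.35). RFC5 was at 0.29 with the mean of its probe sets, the change of NCK2 was not called with that mean, and that of PTGER2 not with the probe set that is brightest on the prednisolone arrays. For the other 6 genes, ADGRE5, CYTH3, DTX4, MXD4, RUBCNL and ZC3H6, the difference with the drug was between -0.48 and 0.40 and its call ended without at least 1 single array. Differences of this size were small beside those of the leading genes, and the group means of the treated lines differed by at most 0.59.

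**Figure D5:**
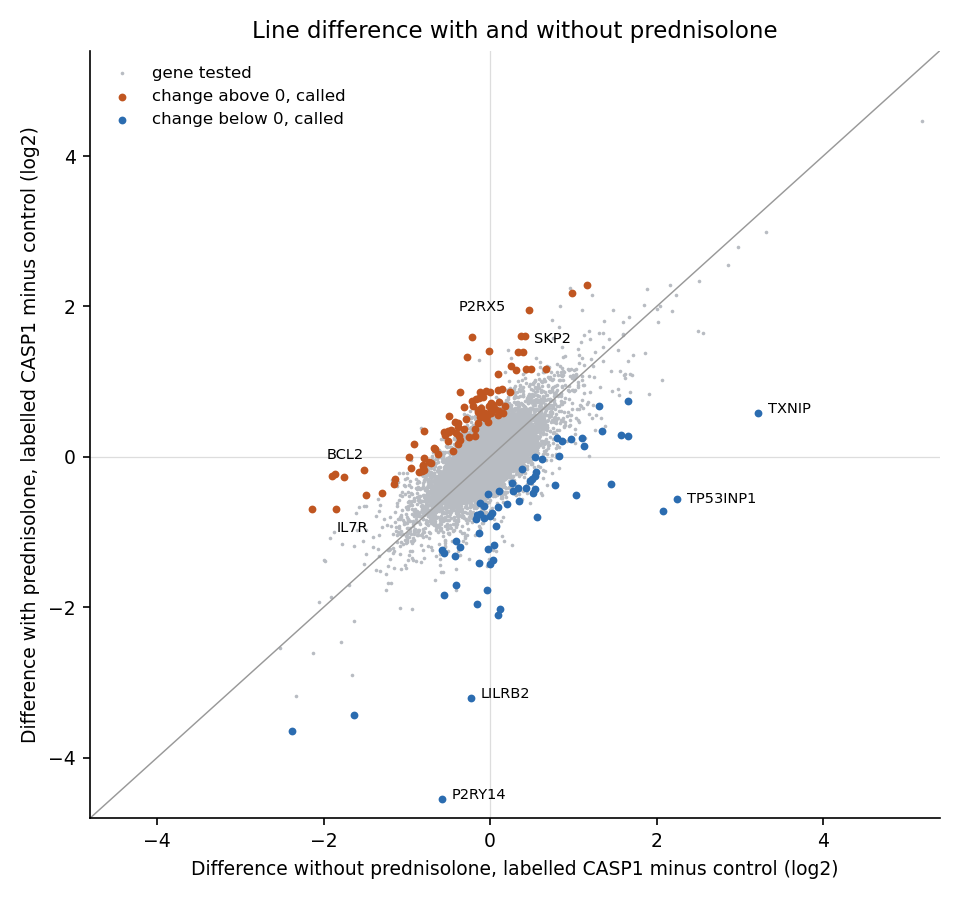
Line difference with prednisolone (vertical axis) against that without it (horizontal axis), labelled CASP1 minus control (log2), for 18132 genes, with called changes in colour and the line of equal differences in grey. P2RY14 and LILRB2 lie far below the line, TXNIP and TP53INP1 to its right, and 11 coloured genes lie in the quadrants of opposite sign with calls in both.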

How the data were processed

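RNA of 16 Nalm6 samples was hybridised to Affymetrix PrimeView arrays, 4 per line and treatment. The values deposited by the authors are log2 signals, and the submitters' processing notes name RMA without a version. Of 49395 probe sets, 44988 had 1 gene in the platform annotation, 1832 several, 2473 none, and 102 were controls. Each of 18132 genes was read from its probe set with the highest mean over all arrays. One limma fit (version 3.58.1, R 4.3.3) over the 4 groups gave the line difference with and without prednisolone and its change, called at a Benjamini-Hochberg adjusted p under 0.05 over all genes. The fit was tested on simulated data. Deviations of same-numbered arrays correlated at over 0.1 in every untreated pair (0.434, 0.147, 0.167 and 0.18). The main fit nevertheless did not pair the replicate numbers, so the untreated differences, overlaps and changes reported above are unpaired. A fit with a block for replicate number was an alternative run, and called 3213 untreated differences against 2552 without the block. Named genes were the 20 largest rises and 20 largest falls among called genes whose treated groups did not overlap, up to 4 members of each list by absolute difference, and the 8 largest changes in each direction. Not all of these are described, and the other list members and genes of opposite direction named were chosen after their values were seen. The comparison and the 41 gene lists were chosen with earlier results of these data known. RMA equalises arrays, so a shift of all RNA would not be seen. Alternatives were other scalings, filters, probe set rules, fits and left-out arrays. Promoters came from RefSeq.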

Additional observations from a re-analysis of the deposited data

Results flagged for a closer look

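Among the 179 genes named here, each in 2 treated groups of 4 arrays, 63 of 358 groups (17.6%) held 1 array far from the other 3, by Dixon's critical value for a gap relative to the group's range. Chance flags about 1 in 20 groups. In 58 of the 63 groups that array was replicate 1.

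In the treated cells labelled CASP1, replicate 1 was the highest array for AURKA at 11.30, BCL2 at 6.99, CCNB1 at 11.13, FAS at 7.98, GSDME at 6.70, HERPUD1 at 8.89, KIF20A at 9.27, NPY at 10.01. It was the lowest for ATP4B at 5.65, CALR at 4.31, CDK6 at 10.88, CPAMD8 at 7.49, EBF1 at 11.06, ENPP2 at 5.38, ERAP1 at 7.27, ERG at 7.75, HLA-DMA at 7.04, HLA-DPB1 at 9.38, HLA-DRA at 12.57, HLA-DRB1 at 8.44, ISG20 at 7.93, LCN6 at 6.08, NEDD9 at 4.95, NRCAM at 4.15, RCAN1 at 9.08, SYK at 7.53, TDRD9 at 3.55. Replicate 2 was the lowest for MXD1 at 6.96.

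In the treated control cells, replicate 1 was the highest array for ADGRE5 at 9.16, B4GALT6 at 5.44, BCL2L11 at 9.06, E2F3 at 9.49, ERG at 9.89, FKBP5 at 12.23, GLDC at 5.90, HSPA5 at 11.89, LAIR1 at 9.78, MXD4 at 7.72, NCK2 at 9.16, NR3C1 at 11.49, PARP1 at 11.50, PDIA3 at 10.16, RAD54L at 7.84, RUBCNL at 11.23, SDHA at 10.20, SYK at 9.66. It was the lowest for GPR171 at 4.63, GSDME at 7.37, HK2 at 9.09, HSPA1B at 6.71, MDM2 at 9.03, MTFR2 at 10.40, NEDD9 at 8.21, NPM1 at 12.78, NPY at 6.23, PIEZO1 at 8.61, SLC2A1 at 7.29, TNFRSF10B at 8.86, TXNIP at 12.32. Replicate 2 was the highest for MXD1 at 6.24, and replicate 3 the lowest for CYTH3 at 10.32, HERPUD1 at 8.48, IFI30 at 7.99.

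The line difference itself differed between treated and untreated cells, by limma's test of the change, in 45 of the named genes. The change was above 0 (log2) in 27 of them, CAPSL 1.64, BCL2 1.63, RNF166 1.59, P2RX5 1.48, GLDC 1.45, PIEZO1 1.41, SKP2 1.23, HSPA6 1.20, IL7R 1.15, RAD54B 1.12, TSC22D3 1.09, GINS2 1.03, DDB2 1.0, H4C8 0.96, RAD54L 0.93, RFC5 0.89, DTX4 0.86, PTGER2 0.84, IFI30 0.82, ZC3H6 0.79, EXO1 0.74, CDT1 0.74, LIG1 0.62, ORC1 0.61, FDPS 0.59, FANCI 0.57, CDC25C 0.51. It was below 0 in 18, P2RY14 -3.98, LILRB2 -2.98, TP53INP1 -2.81, TXNIP -2.63, GPR171 -2.20, TDRD9 -2.14, SH3BP2 -1.80, LILRB1 -1.80, CSGALNACT1 -1.74, GZMA -1.28, SCML4 -1.27, RUBCNL -1.16, MXD4 -0.99, DUSP10 -0.99, NCK2 -0.94, H2BC21 -0.91, CYTH3 -0.85, ADGRE5 -0.81. The calls of GZMA, CDC25C, FANCI, EXO1, LIG1 and H4C8 ended without any 1 of 12 to 15 arrays, those of MXD4, HSPA6 and ZC3H6 without any 1 of 6 or 7, and those of H2BC21 and ORC1 without any 1 of 5.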

How the results depend on the processing

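CASP1 and NR3C1 stayed lower and called in every alternative run, CASP1 from -2.07 to -1.22 and NR3C1 from -0.46 to -0.39. Leaving out each of the 16 arrays in turn gave CASP1 from -2.05 to -1.86 and NR3C1 from -0.48 to -0.38, with NR3C1's adjusted p at most 0.0211.

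Under the same leave-one-out fits the treated lines differed in 2244 to 3191 genes (1098 to 1559 higher, 1146 to 1632 lower), the untreated lines in 1985 to 3331 (800 to 1390 higher, 1158 to 1941 lower), and the change was called in 96 to 268 (51 to 171 above 0, 43 to 97 below 0). Replicates 2 to 4 alone gave 3876 untreated calls, 2329 of them lower, and 727 changes, 493 above and 234 below 0. For these counts the cause was not tested.

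The deviations of same-numbered treated arrays of the 2 lines correlated at over 0.1 in replicate 1 alone (0.191). For replicates 2 to 4 the correlations were 0.09, -0.053 and -0.045, so the numbers were not taken as pairs in the treated comparison. With the replicate block 3213 untreated differences were called, within 1.5 times of the count without it. With the replicate block 3819 treated differences and 289 changes (167 above 0, 122 below 0) were called. With the replicate block on the prednisolone arrays only, which leaves fewer samples in the fit, 1946 genes were called (911 higher), against 2051 without it on the same arrays. Normalization, the filter on dim genes, the choice of probe set and the trended robust test kept the treated count between 2975 and 3143, and the share of higher genes among the calls lay between 47.5% and 56.1%.

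Values under 3.839 lie near the floor of the platform, so the size of a difference that reaches them, as for ARMCX5 and LILRB2, is uncertain. The change of P2RY14 reaches them through its untreated arrays. With 4 arrays per group the number of arrays limits the precision.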
